A study of Mus musculus with 6 samples.

Results

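The genes described here build the mitotic spindle, attach chromosomes to it, condense them and divide the cell. They are 37 of the 18193 genes measured, taken by name from a list of kinesins, kinetochore subunits, condensin subunits, cytokinesis regulators and spindle proteins. Probe sets that the platform annotation assigns to exactly 1 gene symbol were used, and the brightest of them on average was kept for each gene. All 37 genes were measured, with 86 probe sets among them.

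The series compared 3 Cdh1-deficient with 3 Cdh1-intact mouse leukaemias on 6 one-colour Affymetrix arrays, 1 array per moribund mouse. All donors were C57BL/6 mice homozygous for a Cdh1 gene-trap allele with a floxed cDNA (Cdh1f/f). They were injected with pIpC at an age of 7 to 8 weeks and either carried the Mx1-Cre transgene, written Mx1-Cre(+), or lacked it, Mx1-Cre(-). Mx1-Cre is switched on by interferon in many cell types, so deletion was not limited to B cells, and the sample labels give Cdh1 status but no Cre status for each array. If Cre status followed Cdh1 status, Cre itself cannot be told apart from the loss of Cdh1. Marrow mononuclear cells were taken 4 weeks after the last pIpC injection and 2 days after 150 mg/kg 5-fluorouracil. The labels call the leukaemias N-myc induced, the N-myc retroviral vector was pMXs-IG, and RNA came from sorted GFP-positive marrow cells.

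Cdh1 is here the product of Fzr1, an activator of the anaphase-promoting complex, a ubiquitin ligase that marks mitotic proteins for destruction at the end of mitosis and in G1. Several proteins of the spindle and cytokinesis are known targets of this ligase, which acts on protein and not directly on transcript. Transcripts of the division machinery are made mainly in G2 and mitosis, through promoter elements named the cell cycle genes homology region (CHR) and the CCAAT box. In bulk RNA their level therefore also follows the share of cells in those phases, and fewer cells with such a transcript and less RNA per cell cannot be told apart.

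Promoters are shown first, because the 37 genes are known for this shared control. RefSeq promoter windows of build GRCm38.p6, 250 bases before to 50 bases after an annotated start, were held for 32 of the 37 genes, 36 windows in all. The CHR letters TTTGAA, read on both strands, lay in 26 of these 36 windows (72.2%), against 2426 of the 18109 windows of all measured genes (13.4%). From 50 bases before the start onwards they lay in 22 windows (61.1%), against 3.42% of all windows. CCAAT lay in 25 of 36 windows (69.4%), against 37.4% of all windows, and the CHR variant TTTAAA in 6 (16.7%), against 10.4%. A match is a description of letters and not a shown binding site. TTTGAA and TTTAAA were counted separately and never shared bases with CCAAT in the windows printed here.

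The windows printed below run from 120 bases before to 30 bases after the annotated start, 5′ to 3′ on the strand of the gene, with every match to 1 of these 3 motifs in capitals (TTCAAA and ATTGG are the matches on the opposite strand). They belong to the 3 genes whose groups did not overlap (Ect2, Anln and Spc25), to Aspm, Cenpf, Ncapg and Prc1 as further examples with a CHR, and to Melk and Cenpk, whose printed windows hold none.
Ect2 (chr3:27153825-27153974, minus strand): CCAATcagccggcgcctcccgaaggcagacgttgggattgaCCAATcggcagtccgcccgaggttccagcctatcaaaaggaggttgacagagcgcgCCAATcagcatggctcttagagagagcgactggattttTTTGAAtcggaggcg
Anln (chr9:22389177-22389326, minus strand): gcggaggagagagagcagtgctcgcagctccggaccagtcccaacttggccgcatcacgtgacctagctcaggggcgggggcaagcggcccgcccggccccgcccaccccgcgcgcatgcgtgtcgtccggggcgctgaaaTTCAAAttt
Spc25 (chr2:69206184-69206333, minus strand): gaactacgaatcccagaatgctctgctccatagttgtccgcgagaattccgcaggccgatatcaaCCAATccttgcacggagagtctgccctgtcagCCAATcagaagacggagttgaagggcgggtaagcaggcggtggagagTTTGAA
Aspm (chr1:139454653-139454802, plus strand): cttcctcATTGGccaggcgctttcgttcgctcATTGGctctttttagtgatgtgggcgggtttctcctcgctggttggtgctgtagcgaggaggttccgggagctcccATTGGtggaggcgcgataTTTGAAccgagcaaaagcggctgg
Cenpf (chr1:189688057-189688206, minus strand): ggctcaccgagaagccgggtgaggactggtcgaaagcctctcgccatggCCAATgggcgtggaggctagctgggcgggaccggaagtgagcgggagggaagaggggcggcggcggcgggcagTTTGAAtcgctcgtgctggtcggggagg
Ncapg (chr5:45669805-45669954, plus strand): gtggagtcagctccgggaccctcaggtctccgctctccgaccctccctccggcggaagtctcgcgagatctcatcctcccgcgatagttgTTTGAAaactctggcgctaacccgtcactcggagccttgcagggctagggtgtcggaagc
Prc1 (chr7:80294331-80294480, plus strand): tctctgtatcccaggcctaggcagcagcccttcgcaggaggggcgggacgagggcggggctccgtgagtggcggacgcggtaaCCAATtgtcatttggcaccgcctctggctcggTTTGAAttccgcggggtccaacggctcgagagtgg
Melk (chr4:44300797-44300946, plus strand): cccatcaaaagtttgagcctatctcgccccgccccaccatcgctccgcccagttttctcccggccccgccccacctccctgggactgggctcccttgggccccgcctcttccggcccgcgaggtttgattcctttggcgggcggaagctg
Cenpk (chr13:104228491-104228640, plus strand): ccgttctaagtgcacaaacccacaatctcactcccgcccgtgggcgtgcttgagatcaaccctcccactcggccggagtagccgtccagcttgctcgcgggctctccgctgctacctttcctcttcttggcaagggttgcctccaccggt

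In the Ect2, Spc25, Aspm and Cenpf windows the CHR lay just downstream of the annotated start, from base 16, 25, 7 and 3 after it, with 1 or more CCAAT boxes upstream. In the Ncapg window it lay upstream, at bases −30 to −25, and in the printed Prc1 window it spanned the start, at bases −5 to 1. Anln has its matches at bases 22 to 27 and 29 to 34, of which the second runs past the printed stretch. Of the 24 genes with a CHR 23 had a higher mean in Cdh1-deficient cells (median log2 difference 0.33), and so did 7 of the 8 without one (0.33). Outside the 37 genes, 50.2% of 2239 genes with TTTGAA in the window were higher, against 51.7% of 12181 genes without it.

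**Figure D1:**
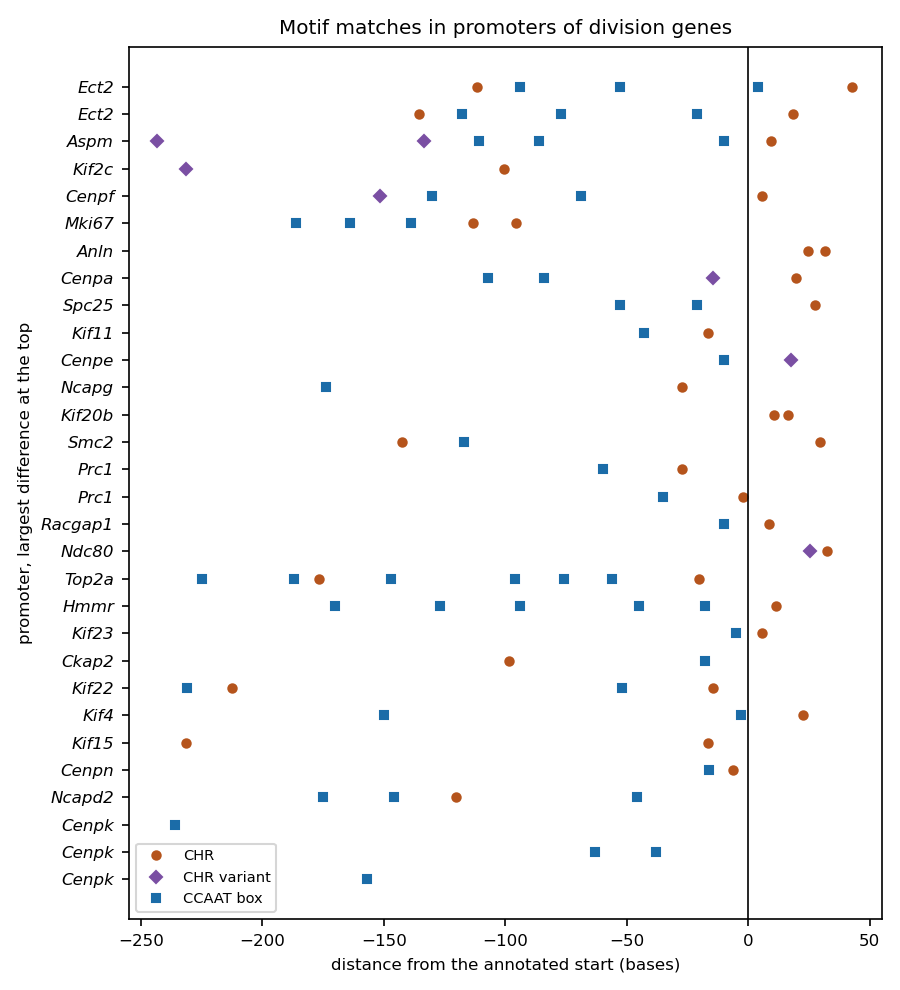
Matches to the CHR (TTTGAA, circles), its variant TTTAAA (diamonds) and CCAAT (squares) in the promoter windows that hold any, by distance from the annotated start in bases. Genes run from the largest log2 difference (Cdh1-deficient minus Cdh1-intact) at the top to the smallest, a gene with several annotated starts has several rows, and circles gather near the start.

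Levels below are RMA values on the log2 scale, so that 1 unit is a doubling, and each difference is the Cdh1-deficient mean minus the Cdh1-intact mean. On this scale 34 of the 37 genes had a higher mean in Cdh1-deficient cells and 3 a lower one, with a median difference of 0.30 and a range of −0.35 to 0.86. Over all genes 50.9% were higher, with a median of 0.00338. The chosen probe sets of the 37 genes had a median level of 9.29, against 5.97 over all genes, although brightness differs between probe sets for other reasons than transcript abundance. Of all genes at or above the median level 62.5% were higher, with a median difference of 0.087. None of the 37 passed the limma test (adjusted p under 0.05), and neither did any of the 18193 genes (0.0%). The lowest adjusted p was 0.849, both for these genes and for all genes.

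At an unadjusted p under 0.05 stood 4 of the 37, all higher in Cdh1-deficient cells (Ect2, Anln, Aspm and Kif2c), where 4.01% of all genes were. None was lower at that p, where 1.49% of all genes were, which makes 5.5% in both directions. Of the 9097 genes at or above the median level 587 were higher at that p. Single arrays moved the count of 4. Leaving out array 2 or array 3 of the Cdh1-deficient group gave 2 and 1 genes (3.61% and 2.43% of all genes), and leaving out the same arrays of the Cdh1-intact group gave 2 and 12 (6.17% and 9.62%). The groups did not overlap for 3, Ect2, Anln and Spc25, all higher in Cdh1-deficient cells, where 6.65% of all genes were. No gene of the 37 lay lower on all Cdh1-deficient arrays, where 5.09% of all genes did. The share of 8.11% that did not overlap is close to the background. Among genes at or above the median level 9.88% were higher without overlap. The difference exceeded the SD of both groups for 11 of the 37, where 22.9% of all genes did so.

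**Figure D2:**
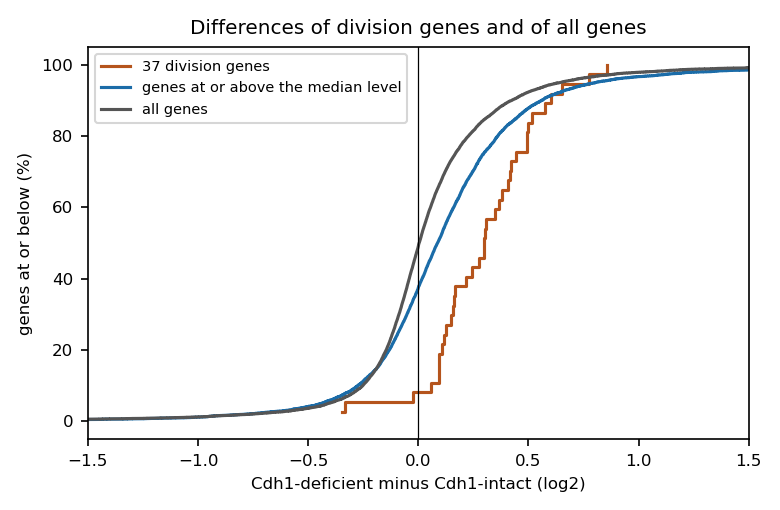
Cumulative share of genes (%) by log2 difference, Cdh1-deficient minus Cdh1-intact, for the 37 division genes, for genes at or above the median level and for all genes; the few genes with larger differences fall outside the axis. The curve of the 37 genes lies to the right of both others over most of its range, with medians of 0.30 for the 37 genes, 0.087 for genes at or above the median level and 0.00338 for all genes.

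Within the Cdh1-intact group, arrays 1 and 2 had lower mean levels of the division genes than the other 4 arrays, and array 3 did not stand apart. Mean levels of the 37 genes were 9.46, 9.62 and 9.61 on Cdh1-deficient arrays 1, 2 and 3, against 9.10, 9.20 and 9.51 on Cdh1-intact arrays 1, 2 and 3. Cdh1-intact array 3 thus lay within the Cdh1-deficient range. Set against single Cdh1-intact arrays, the Cdh1-deficient mean was above array 1 for 34 of 37 genes (median 0.45), above array 2 for 31 (median 0.30) and above array 3 for 22 (median 0.039). Over all genes these shares were 50.4%, 51.7% and 51.3%. Of the 37 genes 20 had their lowest value on Cdh1-intact array 1 and 10 on Cdh1-intact array 2, where 20.0% and 24.0% of all genes had theirs, and 28.8% and 30.2% of genes at or above the median level. For Cdh1-intact array 2 the count of lowest values is thus near the share among genes of like level. Without Cdh1-intact array 1 the median difference was 0.16, with 29 of 37 higher, and without Cdh1-intact array 2 it was 0.29, with 30 higher. Without arrays 1 and 2 it was 0.039, with 22 higher. The last alternative was added after seeing the data, and it leaves a single Cdh1-intact array.

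The Cdh1-intact arrays also varied more among themselves. The median SD over the 37 genes was 0.15 in Cdh1-deficient and 0.32 in Cdh1-intact cells, against 0.15 and 0.21 over all genes. The larger SD was in the Cdh1-intact group for 30 of 37 genes, where 65.5% of all genes had theirs. The highest value of a gene was on Cdh1-deficient array 2 for 14 genes, and on Cdh1-deficient array 3 and Cdh1-intact array 3 for 9 each. Over all genes these shares were 14.8%, 13.9% and 15.0%, and 19.3%, 18.1% and 16.7% at or above the median level. No gene of the 37 had its highest value on Cdh1-intact array 1, where 20.4% of all genes and 12.6% at or above the median level had theirs.

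**Figure D3:**
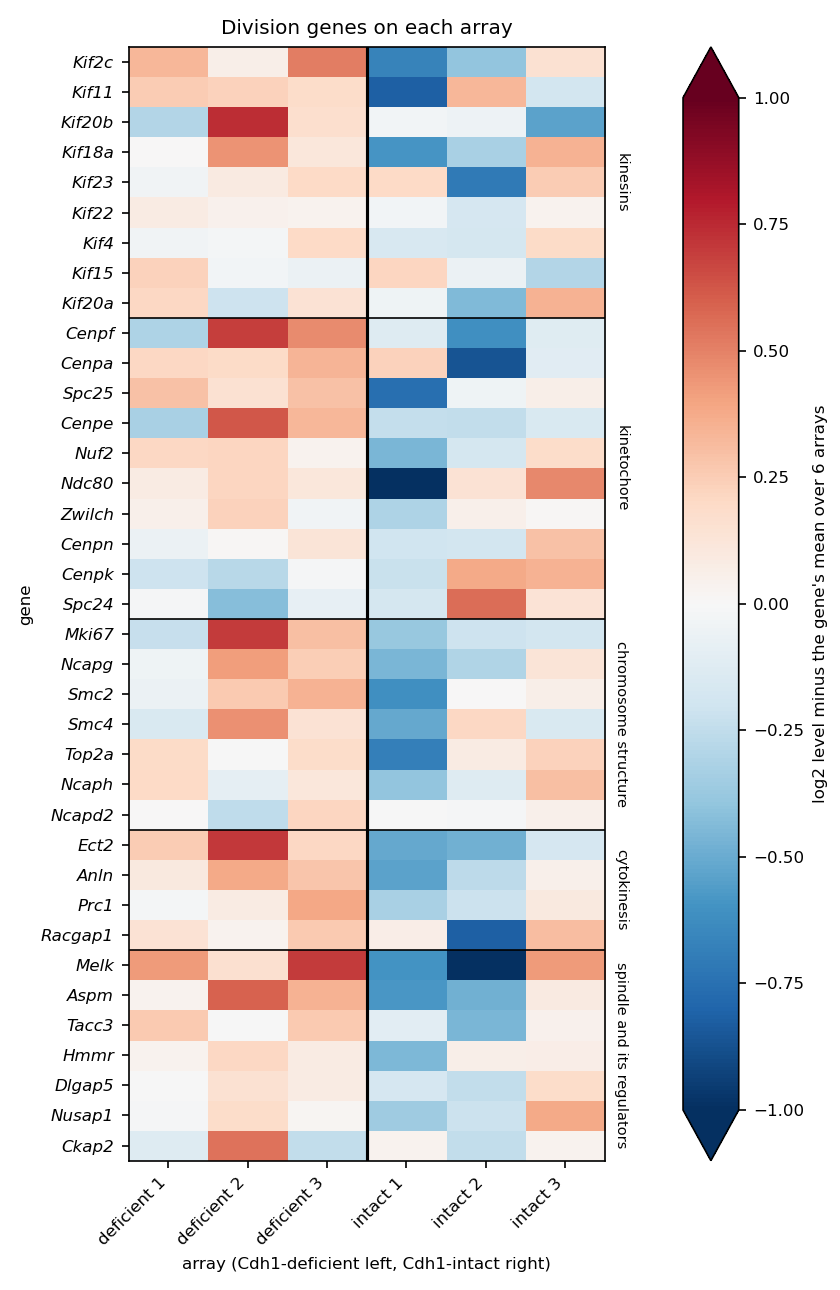
Log2 level of each of the 37 genes on each array minus its mean over the 6 arrays, by role, with Cdh1-deficient arrays left of the line and Cdh1-intact arrays right of it; colours are clipped at −1 and 1. Blue cells gather on Cdh1-intact arrays 1 and 2, while Cdh1-intact array 3 is closer to the Cdh1-deficient arrays in these genes.

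The arrays also differed among themselves in transcripts of other blood cells. The 9 measured B-lineage markers averaged 9.75, 9.53 and 9.51 on the Cdh1-deficient arrays, against 9.59, 5.48 and 10.03 on the Cdh1-intact arrays, so Cdh1-intact array 2 lacked most of them. Its Cd79b, a subunit of the B-cell receptor, lay at 4.35 and Ms4a1, which encodes CD20, at 3.97. Ighm, of the same list, was still high there at 11.2, against 12.5 to 13.5 on the other arrays. The 9 T and NK markers averaged 5.18, 5.16 and 5.15 on the Cdh1-deficient arrays, against 5.49, 10.19 and 6.72 on the Cdh1-intact arrays. The label of B-cell leukaemia is therefore not borne out by most of these B-lineage transcripts on Cdh1-intact array 2, and its summed T and NK level was the highest. Cdh1-intact array 3 also carried some T and NK transcripts above every Cdh1-deficient array. For Cd3d, a chain of the T-cell receptor complex, the highest Cdh1-deficient value was 5.41, against 8.69 on that array. For Cd3g, another chain, it was 3.52, against 7.95, and for the granzyme gene Gzma of cytotoxic cells 4.36, against 8.33. Not all markers of the list did so. On the same array Cd6, at 6.14, lay below every Cdh1-deficient array (6.23 to 6.79), and Klrd1, at 3.09, lay among them.

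Cdh1-intact array 1 had the highest erythroid and macrophage means, and Cdh1-deficient array 2 the highest neutrophil mean. The 6 measured erythroid markers averaged 4.89, 6.21 and 5.50 on the Cdh1-deficient arrays, against 7.07, 4.90 and 4.74 on the Cdh1-intact arrays. The 6 macrophage markers averaged 5.54, 5.82 and 5.52 on the Cdh1-deficient arrays, against 6.85, 4.99 and 5.55 on the Cdh1-intact arrays. The 10 neutrophil markers averaged 9.27, 11.40 and 10.11 on the Cdh1-deficient arrays, against 10.11, 6.00 and 9.14 on the Cdh1-intact arrays. The part of these cell types in the levels of the 37 genes was not tested. Fzr1 itself lay at 8.10, 7.73 and 8.22 on the Cdh1-deficient arrays, against 8.92, 8.04 and 8.92 on the Cdh1-intact arrays, a difference of −0.61 (SE 0.28) that did not pass limma (adjusted p = 0.849). Its groups overlapped at Cdh1-intact array 2, and since the position of its probes on the trapped allele is unknown here, the values check no label.

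The limma adjusted p was 0.849 for each of the 37 genes given with its array values below, except Ncapd2. Nothing in the labels pairs mice of the groups by replicate number.

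The kinesins, motor proteins that move along microtubules, were all higher in Cdh1-deficient cells by their means, 9 of 9 with a median of 0.17 and a range of 0.092 to 0.60. Kif2c, which shortens microtubules to correct faulty attachments, lay at 9.86, 9.58 and 10.04 on Cdh1-deficient arrays 1, 2 and 3, against 8.86, 9.13 and 9.67 on Cdh1-intact arrays 1, 2 and 3. Its highest values were on Cdh1-deficient arrays 1 and 3, while Cdh1-deficient array 2 lay below Cdh1-intact array 3. The difference was 0.60 (SE 0.24), and its dimmer probe sets differed by 0.34, 0.033 and −0.11. Kif11, which slides spindle poles apart, lay at 9.36, 9.34 and 9.30 on Cdh1-deficient arrays 1, 2 and 3, against 8.30, 9.45 and 8.93 on Cdh1-intact arrays 1, 2 and 3. Its Cdh1-deficient arrays were close together and Cdh1-intact array 2 was above all of them. The difference was 0.45 (SE 0.29), and 0.15 without Cdh1-intact array 1, its lowest, or 0.72 without Cdh1-intact array 2.

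Kif20b, a kinesin of cytokinesis, differed by 0.41 (SE 0.29) and Kif18a, which limits chromosome movement at microtubule plus ends, by 0.38 (SE 0.27). Both had their highest value on Cdh1-deficient array 2. Kif20b differed by 0.66 when Cdh1-deficient array 1 was left out, 0.14 when Cdh1-deficient array 2 was left out and 0.24 when Cdh1-intact array 3 was left out. Kif18a differed by 0.25 when Cdh1-deficient array 2 was left out, 0.18 when Cdh1-intact array 1 was left out and 0.65 when Cdh1-intact array 3 was left out. The motors of the midzone and of chromosome arms differed by less. Kif23, the motor of centralspindlin, differed by 0.17, and Kif20a, a midzone motor that carries the chromosomal passenger complex, by 0.092. Kif22 and Kif4, which ride on chromosome arms, differed by 0.11 and 0.096. Kif15, a spindle motor with overlapping function to Kif11, was the 1 gene of the 37 below the median level of all genes, at a mean of 4.61, and differed by 0.093.

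**Figure D4:**
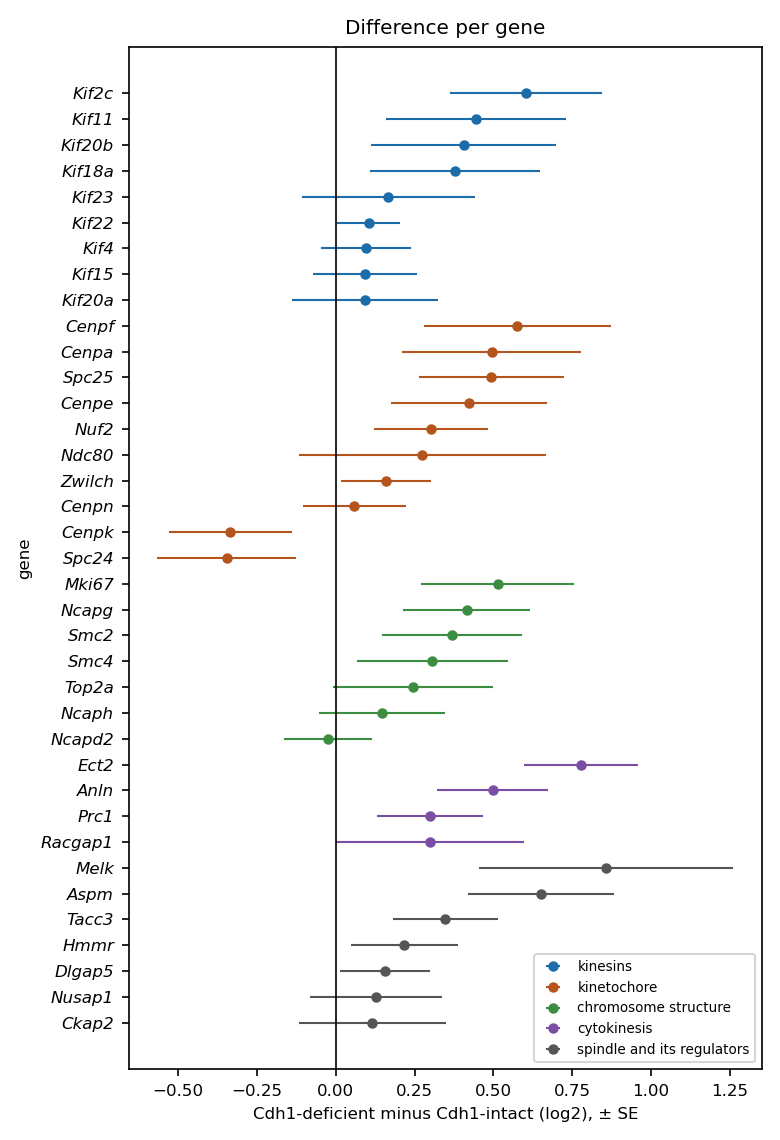
Log2 difference, Cdh1-deficient minus Cdh1-intact, for each of the 37 genes by role; points are limma estimates and bars ± SE, n = 3 arrays per group. All but 3 points (Cenpk, Spc24 and Ncapd2) lie right of 0, and no gene passed the test.

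Kinetochore genes, whose products join centromeres to microtubules, were higher for 8 of 10, with a median of 0.29 and a range of −0.35 to 0.58. The microtubule-binding Ndc80 complex has 4 subunits, and their transcripts did not share 1 direction. Spc25 lay at 9.67, 9.53 and 9.67 on Cdh1-deficient arrays 1, 2 and 3, against 8.62, 9.33 and 9.44 on Cdh1-intact arrays 1, 2 and 3, so that every Cdh1-deficient value was above every Cdh1-intact value. The difference was 0.49 (SE 0.23), and 0.24 without Cdh1-intact array 1, its lowest. The other, dimmer probe set of Spc25 differed by 0.19, and there the groups overlapped. On it Cdh1-deficient array 1, at 5.85, lay below Cdh1-intact arrays 2 and 3, at 5.88 and 5.96. Nuf2 differed by 0.30 (SE 0.18) and Ndc80 by 0.27 (SE 0.39). For both genes Cdh1-intact array 1 was the lowest array. Nuf2 differed by 0.15 when Cdh1-intact array 1 was left out and 0.47 when Cdh1-intact array 3 was left out. Ndc80 differed by −0.18 when Cdh1-intact array 1 was left out, 0.42 when Cdh1-intact array 2 was left out and 0.58 when Cdh1-intact array 3 was left out.

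Spc24, the partner of Spc25 in the complex, ran the other way, at 9.24, 8.83 and 9.17 on Cdh1-deficient arrays 1, 2 and 3, against 9.08, 9.81 and 9.39 on Cdh1-intact arrays 1, 2 and 3. Its lowest value was on Cdh1-deficient array 2 and its highest on Cdh1-intact array 2, and the groups overlapped. The difference was −0.35 (SE 0.22), from a single probe set. Leaving out Cdh1-deficient array 2 made it −0.22, leaving out Cdh1-intact array 1 −0.52, and leaving out Cdh1-intact array 2, the one low in B-lineage markers, −0.15. Cenpk, a subunit of the inner kinetochore, lay at 8.92, 8.85 and 9.12 on Cdh1-deficient arrays 1, 2 and 3, against 8.90, 9.51 and 9.48 on Cdh1-intact arrays 1, 2 and 3. Cdh1-intact array 1 lay with the Cdh1-deficient arrays and the other Cdh1-intact arrays above them. The difference was −0.33 (SE 0.19), or −0.53 without Cdh1-intact array 1, and its other 2 probe sets were also lower, by −0.21 and −0.51.

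Cenpf, a large protein of the outer kinetochore, lay at 9.26, 10.26 and 10.04 on Cdh1-deficient arrays 1, 2 and 3, against 9.43, 8.95 and 9.44 on Cdh1-intact arrays 1, 2 and 3. Cdh1-deficient arrays 2 and 3 were the highest and Cdh1-deficient array 1 lay among the Cdh1-intact arrays. The difference was 0.58 (SE 0.30), with 0.87 without Cdh1-deficient array 1 and 0.37 without Cdh1-deficient array 2, and its dimmer probe sets differed by 0.011 and 0.18. Cenpe, the kinetochore kinesin, had the same order of Cdh1-deficient arrays and differed by 0.42 (SE 0.25), with 0.69 when Cdh1-deficient array 1 was left out and 0.22 when Cdh1-deficient array 2 was left out. Cenpa, the histone H3 variant that marks centromeres, averaged 11.60 ± 0.08 in Cdh1-deficient and 11.11 ± 0.56 in Cdh1-intact cells (SD, n = 3 each), with the lowest value, 10.49, on Cdh1-intact array 2. Its difference of 0.49 was 0.18 when Cdh1-intact array 2 was left out. The inner kinetochore gene Cenpn differed by 0.059 and Zwilch, of the complex that recruits dynein to kinetochores, by 0.16.

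Genes of mitotic chromosome structure were higher for 6 of 7, with a median of 0.31. Mki67, which encodes the proliferation marker Ki-67 that coats mitotic chromosomes, lay at 11.58, 12.51 and 12.11 on Cdh1-deficient arrays 1, 2 and 3, against 11.43, 11.60 and 11.62 on Cdh1-intact arrays 1, 2 and 3. Cdh1-deficient arrays 2 and 3 stood above the other 4, which lay between 11.43 and 11.62. The difference was 0.51 (SE 0.24), and 0.29 without Cdh1-deficient array 2. Ncapg, a subunit of condensin I, lay at 9.31, 9.78 and 9.60 on Cdh1-deficient arrays 1, 2 and 3, against 8.90, 9.06 and 9.48 on Cdh1-intact arrays 1, 2 and 3. Only Cdh1-deficient array 1 fell inside the Cdh1-intact range. The difference was 0.42 (SE 0.20).

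The other condensin I subunits differed by less. Ncaph, which closes the condensin ring, differed by 0.15 (SE 0.20). Ncapd2 lay at 10.52, 10.26 and 10.73 on Cdh1-deficient arrays 1, 2 and 3, against 10.51, 10.50 and 10.56 on Cdh1-intact arrays 1, 2 and 3, with the lowest and the highest value both in the Cdh1-deficient group, and differed by −0.024 (SE 0.14) (limma adjusted p = 0.982). The ATPase subunits Smc2 and Smc4, which condensin I and II share, differed by 0.37 (SE 0.22) and 0.31 (SE 0.24). The difference of Smc2 was 0.15 when Cdh1-intact array 1 was left out, and its other probe sets differed by −0.14, 0.21, −0.30 and −0.086. That of Smc4 was 0.15 when Cdh1-deficient array 2 was left out, 0.13 when Cdh1-intact array 1 was left out and 0.49 when Cdh1-intact array 2 was left out, and its other probe sets, also bright, differed by 0.11 and −0.079. Top2a, the topoisomerase that untangles sister chromatids, differed by 0.24 (SE 0.25) and had its lowest value, 10.76, on Cdh1-intact array 1, against 11.43 to 11.66 on the others. It differed by −0.034 when Cdh1-intact array 1 was left out and 0.42 when Cdh1-intact array 3 was left out, and its dimmer probe sets differed by −0.17 and 0.079.

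The 4 cytokinesis genes were all higher in Cdh1-deficient cells, with the highest median of the roles, 0.40. Ect2, the exchange factor that activates RhoA at the division plane, lay at 9.57, 10.02 and 9.52 on Cdh1-deficient arrays 1, 2 and 3, against 8.80, 8.83 and 9.15 on Cdh1-intact arrays 1, 2 and 3. All Cdh1-deficient values were above all Cdh1-intact values, by 0.37 at the nearest. The means were 9.70 ± 0.28 in Cdh1-deficient and 8.93 ± 0.19 in Cdh1-intact cells (SD, n = 3 each), and the difference of 0.78 (SE 0.18) had the lowest unadjusted p of the 37 genes, 0.00531. Ect2 lies on chromosome 3 and has a single probe set.

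Anln, which encodes anillin, the scaffold of the contractile ring, lay at 9.001, 9.28 and 9.18 on Cdh1-deficient arrays 1, 2 and 3, against 8.37, 8.64 and 8.96 on Cdh1-intact arrays 1, 2 and 3. The groups were apart by 0.046, between Cdh1-deficient array 1 and Cdh1-intact array 3. The difference was 0.50 (SE 0.18), and its other, dimmer probe set differed by 0.37. On that probe set the groups overlapped, with Cdh1-intact array 3, at 5.72, above all Cdh1-deficient arrays. Prc1, which bundles microtubules at the midzone, differed by 0.30 (SE 0.17), by 0.18 when Cdh1-deficient array 3 was left out, and by 0.43 with its other probe set. Racgap1, the partner of Kif23 in centralspindlin, differed by 0.30 (SE 0.30). Its lowest value, 9.13, was on Cdh1-intact array 2, against 9.99 to 10.26 elsewhere. It differed by −0.036 when Cdh1-intact array 2 was left out and 0.53 when Cdh1-intact array 3 was left out, and its other probe sets differed by 0.021 and −0.24.

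Spindle proteins and their regulators were higher for 7 of 7, with a median of 0.22. Aspm, which focuses microtubules at spindle poles, lay at 9.43, 9.99 and 9.74 on Cdh1-deficient arrays 1, 2 and 3, against 8.81, 8.91 and 9.48 on Cdh1-intact arrays 1, 2 and 3. Cdh1-intact array 3 lay just above the lowest Cdh1-deficient array, and the other Cdh1-intact arrays were lower. The difference was 0.65 (SE 0.23). Melk, a kinase gene with high transcript levels in dividing cells, lay at 9.11, 8.84 and 9.38 on Cdh1-deficient arrays 1, 2 and 3, against 8.09, 7.57 and 9.11 on Cdh1-intact arrays 1, 2 and 3. With all arrays it had the largest difference of the 37, 0.86 (SE 0.40), beside a wide spread in the Cdh1-intact group (SD 0.78, n = 3). Without Cdh1-intact array 2 the difference of Melk was 0.51, below the 0.73 of Ect2 and the 0.72 of Kif11, and without Cdh1-intact arrays 1 and 2 it was 0.0016. Cdh1-intact array 3 lay among the Cdh1-deficient values and the other Cdh1-intact arrays below them, with Cdh1-intact array 2 the lowest.

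The remaining spindle genes differed by 0.35 or less. Tacc3, which stabilises spindle microtubules with clathrin, differed by 0.35 (SE 0.17), by 0.21 when Cdh1-intact array 2 was left out, and its dimmer probe sets by 0.58 and 0.62. Hmmr, a spindle assembly factor, differed by 0.22 and by 0.046 when Cdh1-intact array 1 was left out. Dlgap5, which binds spindle microtubules near chromosomes, differed by 0.16, the microtubule bundler Nusap1 by 0.13 and the microtubule-associated Ckap2 by 0.12. For Ckap2 the highest value, 9.50, was on Cdh1-deficient array 2 and the lowest, 8.71, on Cdh1-deficient array 3.

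Leaving out 1 array moved the difference by over 1.5 times for 32 of the 37 genes, and the other 5 were Ect2, Anln, Aspm, Kif2c and Ncapg. No share over all genes stands beside this count. With Cdh1-intact arrays 1 and 2 left out together, these 5 differed by less, by 0.55, 0.20, 0.24, 0.15 and 0.077 in that order. For the 12 genes with a difference under 0.2 in size, all among the 32, the values with 1 array left out ran from −0.14 to 0.35.

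The direction depended in part on the probe set. Of the 37 genes 11 had a single probe set. The other 26 had 49 further probe sets, of which 35 were higher in Cdh1-deficient cells. Of the 28 further probe sets with a mean level of 6 or more, 20 were higher. The 8 lower ones belonged to Smc2 (3 of them), Smc4, Top2a, Hmmr, Cenpk and Ncapd2. Averaging the probe sets of each gene, 34 of 37 genes were again higher, with a median of 0.22.

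Other genes of the same machinery, 77 measured of 83 listed, showed a smaller shift. Of these 53 were higher in Cdh1-deficient cells and 24 lower, with a median difference of 0.13 and a range of −1.39 to 0.70. The share higher was 68.8%, against 62.5% of genes at or above the median level, whose median difference was 0.087. An unadjusted p under 0.05 was reached by 3 of the 77, all higher, where 4.01% of all genes were, and none passed the limma test. The Cdh1-deficient arrays all lay above the Cdh1-intact arrays for 5 (6.49%), where 6.65% of all genes did, and all below them for 1, where 5.09% did, so these counts are no higher than the background. Cenpc1, which links centromeric chromatin to the outer kinetochore, averaged 9.34 ± 0.08 in Cdh1-deficient and 8.66 ± 0.32 in Cdh1-intact cells (SD, n = 3 each). Cit, which encodes citron kinase of the midbody, averaged 9.24 ± 0.12 and Clasp1, which stabilises microtubule ends, 10.14 ± 0.06 in Cdh1-deficient cells, against 8.55 ± 0.37 and 9.62 ± 0.35 in Cdh1-intact cells (SD, n = 3 each). Their differences were 0.68, 0.70 and 0.53 (limma adjusted p = 0.849 each). Cenpc1 and Cit lie on chromosome 5, where 68.1% of all genes were higher and 23.3% were higher without overlap, and Clasp1 lies on chromosome 1. These 3 genes were the ones with an unadjusted p under 0.05. The lowest difference, −1.39 (SE 1.32, limma adjusted p = 0.86), was that of Tacc2, a relative of Tacc3, named after its values were seen. Tacc2 lay at 4.95, 5.24 and 5.17 on Cdh1-deficient arrays 1, 2 and 3, against 4.57, 9.70 and 5.25 on Cdh1-intact arrays 1, 2 and 3, so that Cdh1-intact array 2 alone was high.

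Other named genes of these lists differed by less. The cohesin protector Sgo1 differed by 0.46, the inner kinetochore gene Cenpi by 0.46 and the condensin II subunit Ncapg2 by 0.43. The kinesin Kif14 differed by 0.29, Kif3b by 0.34, the Ran exchange factor Rcc1 by 0.28 and Ran by 0.14. The condensin II gene Ncaph2 differed by −0.026 and Haus7, a subunit of augmin, by −0.37.

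A list of 24 DNA replication and S-phase genes served for comparison, with no test of the difference between lists. Of these 18 were higher in Cdh1-deficient cells (75.0%), with a median of 0.11, against 62.5% and 0.087 for genes at or above the median level. Means of the 24 genes were 10.61, 10.36 and 10.54 on the Cdh1-deficient arrays, against 10.01, 10.53 and 10.63 on the Cdh1-intact arrays. Cdh1-intact array 1 was thus the lowest for replication genes too, while Cdh1-intact array 2 was not low for them.

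Mean levels by role placed Cdh1-intact array 3 below all Cdh1-deficient arrays for 2 roles and among them for 3. Cytokinesis genes averaged 9.46, 9.64 and 9.62 on the Cdh1-deficient arrays, against 9.01, 8.89 and 9.41 on the Cdh1-intact arrays, so the group means did not overlap. Kinesins averaged 8.81, 8.88 and 8.90 on the Cdh1-deficient arrays, against 8.52, 8.51 and 8.76 on the Cdh1-intact arrays, likewise without overlap. Gene by gene, 0 of the 9 kinesins and 2 of the 4 cytokinesis genes were higher without overlap, where 6.65% of all genes were. No background for means of small lists stands beside these role means. Kinetochore genes averaged 9.29, 9.46 and 9.46 on the Cdh1-deficient arrays, against 8.97, 9.20 and 9.41 on the Cdh1-intact arrays. For kinetochore, chromosome structure and spindle genes Cdh1-intact array 3 lay above the lowest Cdh1-deficient array.

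Of the 37 genes 3 lie on chromosome 3 (Ect2, Smc4 and Cenpe) and 3 on chromosome 5 (Cenpa, Ncapg and Tacc3). Of all genes on these chromosomes 63.4% and 68.1% were higher, and all Cdh1-deficient arrays lay above all Cdh1-intact arrays for 17.5% and 23.3%. All 6 were higher in Cdh1-deficient cells, with medians of 0.42 on both chromosomes. The 31 genes on other chromosomes had a median of 0.24, with 28 higher.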

How the data were processed

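RNA of GFP-positive marrow cells was measured on 6 one-colour Affymetrix arrays, 3 Cdh1-deficient and 3 Cdh1-intact, grouped by the sample titles. The authors deposited log2 values made with RMA, per the submitters' processing notes. RMA makes array distributions alike, so a change in total RNA cannot be seen. Of 45101 probe sets 34945 had 1 symbol in the platform annotation of 2016, giving 18193 genes. No detection call or filter on level was used, and the number of arrays limits the precision.

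The test between groups was that of limma 3.58.1 (R 4.3.3; two-sided, eBayes without trend), with Benjamini-Hochberg adjustment over all genes and a threshold of 0.05. It was also tried on simulated data with known answers, 200 changed genes in each of 5 runs. There it recovered 46.7% of changes of 1 log2 unit, 76.4% of 2 and 92.2% of 4, with 8 false calls per run. Changes under 1 unit were not simulated, and the differences of all 37 genes were under 1. A permutation test of 3 against 3 arrays cannot go below p = 0.1 and was not used. Labels do not say that equal replicate numbers share a litter. Across genes, deviations from the group means of same-numbered arrays correlated at −0.14, 0.01 and 0.04. With 3 arrays per group these correlations cannot settle whether mice were paired. The numbers were not taken as pairs because no label pairs them.

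The members and lists were chosen with earlier results of these data known. Array values were given for the 2 members of smallest unadjusted p per role, for those with a difference below 0 and for those whose groups did not overlap, and up to 3 genes were named per list of other machinery. Promoters with a CHR, its variant or a CCAAT box were counted on both strands in RefSeq windows of GRCm38.p6; the planned count of degron letters in proteins was not run, and RefSeq protein sequences were not used here. Alternatives were 2 filters on level, median centring, quantile normalization, 3 other probe set rules, trend and robust estimation, array weights, another threshold, a replicate block, leaving out arrays and leaving out chromosomes 3 and 5.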

Additional observations from a re-analysis of the deposited data

How the results depend on the processing

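No gene of the 37 passed limma's adjusted p under 0.05 under any of the alternatives run, and their lowest adjusted p was 0.359. Of all 18193 genes 0 passed in each of them except with Cdh1-intact arrays 1 and 2 left out together, which gave 7. That setting was added after seeing the data, and its lone Cdh1-intact array is assumed to vary like the Cdh1-deficient ones. At an unadjusted p under 0.05, 1000 genes stood in the limma fit with all arrays, 729 higher and 271 lower in Cdh1-deficient cells.

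The median difference of 0.30 was 0.31 with median centring and 0.25 with quantile normalization. It was 0.17 without suffixed probe sets, those whose names end in _a_at, _s_at or _x_at. There 31 of the 37 genes had a value and 25 were higher, and Ect2 was among the genes without one. Every probe set used, suffixed or not, had 1 gene symbol in the annotation. Leaving out each array in turn gave medians of 0.16 to 0.42, with 29 to 34 of 37 higher. With Cdh1-intact arrays 1 and 2 left out the median was 0.039 and 22 were higher. Genes whose groups did not overlap numbered 3 with all arrays (8.11%, against 11.7% of all genes). Without suffixed probe sets 1 of 31 did not overlap (3.23%, against 11.7%). With 1 array left out they numbered 5 to 17 (13.5% to 45.9% of the 37, against 17.3% to 28.4% of all genes). With Cdh1-intact arrays 1 and 2 left out they numbered 19 (51.4%, against 52.3%). Fewer arrays separate more easily. With 1 array left out the share was above that of all genes only without Cdh1-deficient array 1 (29.7%, against 23.3%) and without Cdh1-intact array 3 (45.9%, against 28.4%). The replicate block left the median at 0.30 and the number higher at 34 and changed no call at the adjusted threshold, though 9 of the 37 genes then had an unadjusted p under 0.05, against 4, where 5.36% of all genes had one with the block and 5.5% without it. With 1 array left out that count of the 37 was 1 to 12 (2.7% to 32.4%), where 2.43% to 9.62% of all genes had such a p. The result without chromosomes 3 and 5, a setting also added after seeing the data, was a median of 0.24 with 28 of 31 higher.

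Of 653 single-gene differences under 18 alternatives 229 were identical to the value with all arrays, since 5 of the alternatives cannot move a difference and others keep the same probe set. Of the other 424 differences, 393 kept their sign and 31 reversed, in 18 genes; the cause was not tested. With Cdh1-intact arrays 1 and 2 left out the reversed differences were Cenpn −0.26, Dlgap5 −0.10, Kif18a −0.16, Kif20a −0.30, Kif23 −0.17, Kif4 −0.14, Ncaph −0.23, Ndc80 −0.34, Nuf2 −0.031, Nusap1 −0.32, Racgap1 −0.16 and Top2a −0.11. With the most variable probe set they were Hmmr −0.27, Smc2 −0.086 and Top2a −0.17, and without suffixed probe sets Hmmr −0.27, Kif20b −0.033 and Top2a −0.17. Array weights gave Ncapd2 0.026. With 1 array left out the ranges that crossed 0 were −0.025 to 0.22 for Cenpn, −0.13 to 0.27 for Ckap2, −0.032 to 0.22 for Kif15, −0.11 to 0.29 for Kif20a, −0.14 to 0.34 for Kif23, −0.14 to 0.096 for Ncapd2, −0.013 to 0.33 for Ncaph, −0.18 to 0.58 for Ndc80, −0.019 to 0.35 for Nusap1, −0.036 to 0.53 for Racgap1 and −0.034 to 0.42 for Top2a.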
